A study of Mus musculus with 2 samples.

Results

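The genes described here are the 8 members of the Gimap family (Gimap1, Gimap3, Gimap4, Gimap5, Gimap6, Gimap7, Gimap8 and Gimap9) that carry these symbols among the 32285 genes counted. They were chosen by symbol, and all 8 had unique molecular identifiers (UMIs, the tags that count captured transcripts) in both libraries. The cells were lung γδ T cells of uninfected 5 to 7 week old mice, sorted for single-cell RNA sequencing. The WT library held Vγ1-negative cells of C57BL/6NCrl mice, and the KO library held Vγ1-positive cells of the strain B6.Cg-Tcrgtm1lku(B6.Vg4-/-Vg6-/-), whose name gives it as lacking both the Vγ4 and the Vγ6 chain. The study used mice of both sexes, and how many animals went into a library was not stated. The comparison asks how Vγ1 T cells that develop without Vγ4 and Vγ6 T cells differ from the Vγ4 and Vγ6 T cells of WT lungs.

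GIMAP proteins (GTPases of immunity-associated proteins) are GTP-binding proteins found mainly in lymphocytes, many of them anchored in intracellular membranes. They are known for keeping resting T and B cells alive. Gimap5 is required for lymphocyte survival and loss of it depletes peripheral T cells, Gimap3 is its closest relative, and Gimap1 is needed to maintain mature T and B cells. Gimap6 binds a member of the ATG8 family of autophagy proteins, Gimap4 has been linked to lymphocyte death, Gimap7 stimulates the GTPase activity of another family member, and Gimap8 is the largest member and holds more than one GTPase domain. No role of Gimap9 is stated here.

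The 8 genes lie side by side on chromosome 6 (GRCm38, the build also called mm10), from 48647234 to 48770851, a span of 124 kb. In order they are Gimap8, Gimap9, Gimap4, Gimap6, Gimap7, Gimap1, Gimap5 and Gimap3, and all but Gimap6 and Gimap3 are transcribed from the plus strand. The antisense transcript Gimap1os overlaps Gimap1, and an annotated read-through gene, Gm28053, spans Gimap7, Gimap1 and Gimap5 but is not listed in the count files. Tmem176b and Tmem176a, a pair of membrane protein genes that are high in IL-17-producing γδ T cells, begin 63.0 kb beyond Gimap3 and overlap each other. Only 1 of the 28 pairs of family members shared any exact stretch of 50 transcript bases: Gimap3 and Gimap5 had 190 in common, 7.52% of those of Gimap3 and 4.53% of those of Gimap5. Reads from that stretch cannot be assigned to either gene with certainty.

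The promoters of the members that differed most between groups (Gimap7, Gimap4 and Gimap6) and of one that differed least (Gimap8, at the start site whose window held a motif match) are shown from 250 bases before to 50 bases after the start site, 5′ to 3′ on the gene's strand, as given by RefSeq for GRCm38.p6. Capitals mark matches, on either strand, to a few short motifs.
Gimap7, chr6:48718371-48718670, plus strand: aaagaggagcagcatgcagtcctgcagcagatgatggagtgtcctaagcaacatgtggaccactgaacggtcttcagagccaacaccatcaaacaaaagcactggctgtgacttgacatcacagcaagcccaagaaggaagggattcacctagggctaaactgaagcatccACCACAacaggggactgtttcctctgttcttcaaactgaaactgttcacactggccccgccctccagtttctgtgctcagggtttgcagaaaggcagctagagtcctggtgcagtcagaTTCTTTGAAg
Gimap4, chr6:48684328-48684627, plus strand: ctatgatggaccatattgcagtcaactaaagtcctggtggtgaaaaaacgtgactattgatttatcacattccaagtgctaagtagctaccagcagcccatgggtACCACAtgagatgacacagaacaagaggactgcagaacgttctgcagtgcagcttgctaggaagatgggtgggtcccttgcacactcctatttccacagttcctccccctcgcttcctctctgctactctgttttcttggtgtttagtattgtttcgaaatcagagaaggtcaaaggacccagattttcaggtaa
Gimap6, chr6:48708195-48708494, minus strand: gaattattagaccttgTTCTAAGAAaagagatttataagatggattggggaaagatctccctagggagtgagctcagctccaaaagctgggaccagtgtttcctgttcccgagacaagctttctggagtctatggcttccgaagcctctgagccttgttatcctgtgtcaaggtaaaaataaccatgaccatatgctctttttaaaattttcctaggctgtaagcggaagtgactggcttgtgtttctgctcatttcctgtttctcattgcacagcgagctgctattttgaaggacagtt
Gimap8, chr6:48647111-48647410, plus strand: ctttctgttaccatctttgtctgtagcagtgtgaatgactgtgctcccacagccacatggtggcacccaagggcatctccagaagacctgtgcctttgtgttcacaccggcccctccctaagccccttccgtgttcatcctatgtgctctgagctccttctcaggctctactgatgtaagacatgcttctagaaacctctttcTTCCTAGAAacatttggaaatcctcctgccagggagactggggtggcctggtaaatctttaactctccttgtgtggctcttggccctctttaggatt
In Gimap7 the capitals are a RUNX match (TGTGGT, here as its reverse complement) and, at the end, a STAT match (TTCNNNGAA) that contains a TCF and LEF match (CTTTGAA). In Gimap4 they are a RUNX match, and in Gimap6 and Gimap8 a STAT match. Over the 9 promoter windows of the family (Gimap8 has a pair), 4 held the STAT letters, against 8.30% of all 32851 windows, and 3 held the RUNX letters, against 16.8%. The TCF and LEF letters were in 1 window (5.14% of all) and FOX letters (GTAAACA) in 1 (3.65%). ETS letters (CCGGAAGT, 3.89% of all) and KLF letters (CACACCC, 7.95%) were in none. A match is a description of these letters and says nothing about binding.

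The WT matrix held 2520 barcodes and the KO matrix 6688. After the study's filter, 2505 and 6634 cells were kept, with median depths of 3288 and 3521 UMIs. At an equal depth of 2000 UMIs per cell, 95.6% of WT and 98.6% of KO cells had a UMI of a CD3 chain, so the sorted cells carried the T cell transcript their label gives. Tcrg-V6 had 2906 UMIs in the WT library and 0 in the KO library, and Tcrg-V1 had 251 and 5449. Without thinning, a Tcrg-V1 UMI was held by 7.82% of the cells sorted as Vγ1-negative and by 43.4% of those sorted as Vγ1-positive. Tcrg-V4 went against the label: it had 715 UMIs in the WT library (79.7 CPM, its UMIs per 1000000 UMIs of the cells) and 1291 (49.8 CPM) in the library labelled KO, where the chain should be absent. Whether those reads come from outside the deleted part was not tested, and the library is called KO-labelled throughout. The libraries shared 23 cell barcodes. Each group is 1 library, so there is no replicate check and no test. Intervals are 95% intervals of counting error only, and strain, sorted chain and library cannot be told apart where the libraries are compared.

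Gimap transcripts were lowest in WT cells with Tcrg-V6, higher in WT cells with Tcrg-V4 and highest in KO-labelled cells with Tcrg-V1. The 520 WT cells in which Tcrg-V6 was the only Tcrg variable gene detected had 1280 Gimap UMIs over the 8 genes, 646 CPM (612 to 683). The 410 WT cells with Tcrg-V4 alone had 2558 Gimap UMIs, 1616 CPM (1554 to 1680), and the 2880 KO-labelled cells with Tcrg-V1 had 29140, 2153 CPM (2128 to 2178). The intervals of the 3 groups did not overlap. On the log2 scale the summed level in Tcrg-V4-only cells was 1.32 above that in Tcrg-V6-only cells (1.22 to 1.42). The level in KO-labelled Tcrg-V1 cells was 1.74 above Tcrg-V6-only cells (1.65 to 1.82), and both comparisons share the Tcrg-V6-only cells. Between KO-labelled Tcrg-V1 and WT Tcrg-V4-only cells the difference was 0.41 (0.36 to 0.47). That last difference was 0.090 (-0.0035 to 0.18) among cells with Xist and no Y-linked UMI. Among cells at or below their library's median share of stress transcripts it was 0.070 (-0.0027 to 0.14). Both intervals include 0, so these groups were not distinguished there. The difference was 0.20 when at least 2 UMIs were required to call a chain.

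The genes tied to lymphocyte survival were lowest with Tcrg-V6, higher with Tcrg-V4 and highest with Tcrg-V1. Gimap5 stood at 56.6 CPM (46.6 to 68.1) in Tcrg-V6-only, 140.2 CPM (122 to 160) in Tcrg-V4-only and 188 CPM (180 to 195) in KO-labelled Tcrg-V1 cells. Its relative Gimap3 stood at 213, 382 and 563 CPM in the same order. Gimap1 stood at 65.1, 110.5 and 210.0 CPM. For each of these 3 genes the counting intervals of the 3 groups were apart, and Gimap1 had the largest difference of any member between Tcrg-V1 and Tcrg-V4-only cells (log2 0.93, 0.71 to 1.15).

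Gimap6 and Gimap4 had steeper differences. Gimap6, the autophagy-linked member, stood at 114 CPM (99.3 to 129) in Tcrg-V6-only, 477 CPM (443 to 512) in Tcrg-V4-only and 615 CPM (602 to 629) in KO-labelled Tcrg-V1 cells, with no overlap. Gimap4 stood at 76.8 CPM (65.0 to 90.0), 239 CPM (215 to 264) and 282 CPM (273 to 291). Both genes were far lower in Tcrg-V6-only cells than in either other group, while the step from Tcrg-V4 to Tcrg-V1 was smaller: log2 0.37 (0.26 to 0.48) for Gimap6 and 0.24 (0.088 to 0.40) for Gimap4.

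Gimap7 had the widest gap. It had 10 UMIs in the 520 Tcrg-V6-only cells (5.05 CPM, 2.42 to 9.29), 82 in Tcrg-V4-only cells (51.8 CPM, 41.2 to 64.3) and 624 in KO-labelled Tcrg-V1 cells (46.1 CPM, 42.6 to 49.9). The Tcrg-V4-only and Tcrg-V1 intervals overlapped (log2 -0.17, -0.50 to 0.18), so these neighbours in the order were not distinguished at this depth. At 2000 UMIs per cell, 4 of 483 Tcrg-V6-only cells had a Gimap7 UMI, 0.828% (0.226 to 2.11). The share was 7.27% in Tcrg-V4-only and 8.43% in Tcrg-V1 cells. Over all cells of the groups, without thinning, the shares were 1.73%, 13.2% and 15.7%.

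Gimap8 and Gimap9 had the smallest span. Gimap8 stood at 68.7 CPM (57.6 to 81.2), 124 CPM (107 to 142) and 132 CPM (126 to 139), and the upper pair overlapped. Gimap9 stood at 47.5 CPM (38.4 to 58.1), 92.2 CPM (77.9 to 108) and 116 CPM (110.4 to 122). Tcrg-V6-only cells were lowest for both genes, and the upper pair of intervals of Gimap9 were narrowly apart.

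**Figure D1:**
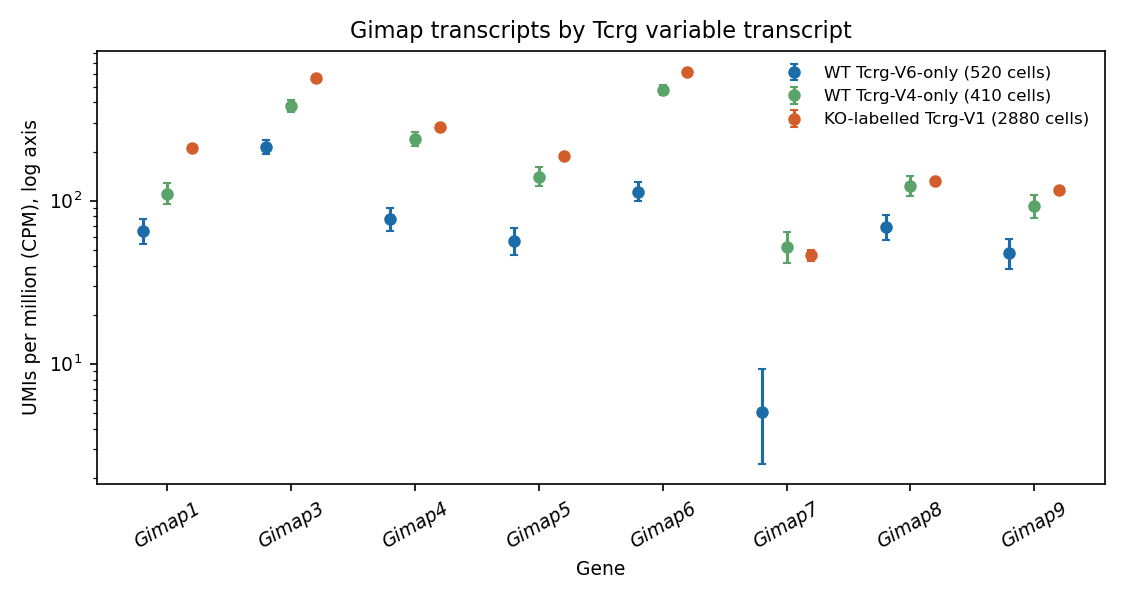
Level of each Gimap gene (vertical axis, CPM on a log axis) in WT Tcrg-V6-only cells (blue), WT Tcrg-V4-only cells (green) and KO-labelled Tcrg-V1 cells (orange), with bars for 95% Poisson counting intervals. The blue points are lowest for all 8 genes, and Gimap7 has the widest gap, from 5.05 CPM to 51.8 CPM.

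With a gene counted as apart when its log2 ratio was at least 1 (2-fold) and it had at least 30 UMIs over both groups, 4 of the 8 members (Gimap4, Gimap5, Gimap6 and Gimap7) were higher in Tcrg-V4-only than in Tcrg-V6-only cells, against 5.29% of 8133 genes. The other 4 ranged from 0.76 to 0.96, just under the line. At 1.5-fold all 8 passed, but the share of all genes at that cut was not counted. Between Tcrg-V1 and Tcrg-V6-only cells 7 of 8 were higher, against 11.4% of 10780 genes, and Gimap8 was at 0.95. Between Tcrg-V1 and Tcrg-V4-only cells 0 of 8 were 2-fold apart, against 5.28% of 10754 genes higher and 3.89% lower. The median log2 ratio of the 8 members was 1.13, 1.71 and 0.35 in these comparisons, beside 0.015, 0.098 and 0.074 over all genes counted.

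The make-up of the family sum differed too. Gimap6 gave 17.6% of the Gimap UMIs of Tcrg-V6-only cells but 29.5% of those of Tcrg-V4-only and 28.6% of those of Tcrg-V1 cells. Gimap3 gave 33.0%, 23.6% and 26.2%, and Gimap8 gave 10.6%, 7.66% and 6.15%. Gimap5 kept nearly the same share of the sum, at 8.75%, 8.68% and 8.72%. These shares are of UMIs, not corrected for transcript length, so they compare 1 gene between groups and not 1 gene with another.

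Single cells showed the same order. At 2000 UMIs per cell, Tcrg-V6-only cells held UMIs of 1.01 of the 8 genes on average, Tcrg-V4-only cells of 1.90 and KO-labelled Tcrg-V1 cells of 2.70. None of the 8 was detected in 39.8% of Tcrg-V6-only, 29.1% of Tcrg-V4-only and 12.9% of Tcrg-V1 cells, while 4 or more were detected in 3.31%, 20.0% and 32.9%. The Tcrg-V4-only cells were spread widely, with sizeable shares at 0 genes and at 4 genes (12.2%). As a background, the 37 WT cells that had no CD3 UMI and at least 3 UMIs of myeloid markers had 18 Gimap UMIs in all, 122 CPM (72.4 to 193). Of the 29 that reached 2000 UMIs, 93.1% had no Gimap UMI. The 22 such cells of the KO-labelled library stood at 204 CPM (106 to 357), so every chain group was above the level in these cells. With so few cells, a count of 0 there allows a share of up to 10.3% in the WT library. The Gimap7 shares of Tcrg-V6-only and of Tcrg-V4-only cells both lie under that limit and cannot be told from background. In the KO-labelled library only 11 such cells reached 2000 UMIs, too few to set the Gimap7 share of Tcrg-V1 cells against.

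**Figure D2:**
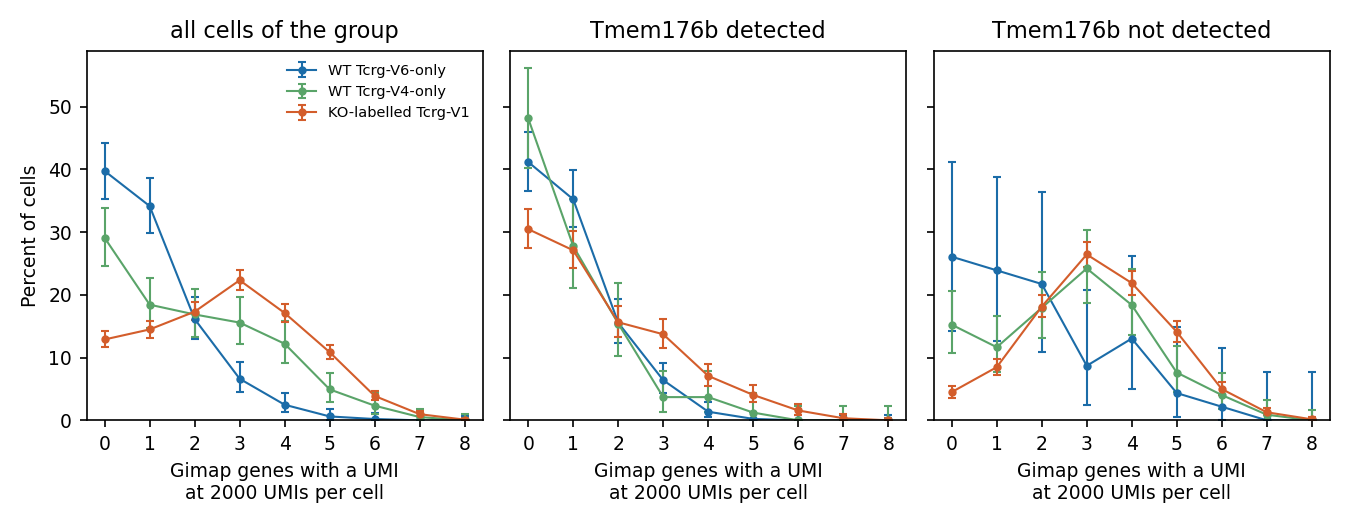
Percent of cells (vertical axis, with exact binomial 95% intervals) by the number of Gimap genes with a UMI at 2000 UMIs per cell, for the 3 chain groups as a whole and split by Tmem176b detection on all UMIs. Among Tmem176b-detected cells the WT groups lie close together, with 41.2% and 48.1% of cells at 0 genes.

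Stress transcripts and markers of other cell types moved with these groups. The 10 immediate-early and heat-shock genes summed to 5761 CPM in Tcrg-V6-only, 5932 CPM in Tcrg-V4-only and 4220 CPM in Tcrg-V1 cells, all 10 detected in each group. The 8 myeloid markers summed to 308, 507 and 190.2 CPM: 6 of 8 were detected in Tcrg-V6-only cells (C1qa and Adgre1 at 0), 6 of 8 in Tcrg-V4-only cells (C1qa and C1qb at 0) and all 8 in Tcrg-V1 cells. Epithelial markers summed to 14.6, 20.2 and 32.2 CPM (4, 3 and 4 of 5 detected, Krt8 at 0 in each and Sftpc in Tcrg-V4-only cells) and endothelial markers to 58.1, 55.0 and 56.7 CPM (3, 3 and 4 of 4, with Kdr or Cdh5 at 0 in the WT groups). The B-cell markers Cd79a, Cd79b and Ms4a1 summed to 27.3, 69.5 and 19.5 CPM, with Ms4a1 at 0 in Tcrg-V6-only cells. Without the cells that held at least 3 UMIs of such a list, the difference between Tcrg-V4-only and Tcrg-V6-only cells was 1.22 and that between Tcrg-V1 and Tcrg-V4-only cells 0.52. Median depth was 3602, 3427 and 4186 UMIs per cell. The part of depth, stress and other cell types in the single-gene values was not tested.

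Cells with Tmem176b had fewer Gimap transcripts than cells without it, in both libraries. In the WT library, 1176 cells with a Tmem176b UMI had 676 Gimap CPM (653 to 701) and 1329 cells without one had 2152 CPM (2108 to 2195), a log2 ratio of -1.67 (-1.73 to -1.61). In the KO-labelled library, 1522 cells with it had 1236 CPM and 5112 without it 2786 CPM, a log2 ratio of -1.17 (-1.21 to -1.14). All 8 members were at least 2-fold lower in the WT library, against 8.64% of 10120 genes, and 5 of 8 in the KO-labelled library, against 5.57% of 11580 genes. The other three in the KO-labelled library were Gimap1 (-0.77), Gimap8 (-0.90) and Gimap3 (-0.99). Median ratios were -1.52 and -1.26, beside -0.14 and -0.079 over all genes.

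Gimap7 had the widest gap in both libraries. Gimap7 stood at 9.0 CPM in WT cells with Tmem176b and at 84.2 CPM in those without (log2 -3.23, -3.74 to -2.77). In the KO-labelled library it stood at 18.4 and 61.1 CPM (-1.74, -2.01 to -1.47). Gimap4 (-2.32 WT, -1.33 KO-labelled) and Gimap6 (-2.12, -1.41) followed, and Gimap1 had the smallest gap in both (-1.02, -0.77).

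Detection of a gene depends on depth, and Tmem176b-detected cells were the deeper ones, with medians of 3564 against 2997 UMIs in the WT library and 4189 against 3329 in the KO-labelled library. With each cell thinned to 2000 UMIs the ratio was -1.82 in the WT library. Stress transcripts were higher in cells with Tmem176b, at 6769 against 4389 CPM (WT) and 6013 against 4204 CPM (KO-labelled), and among cells at or below the median stress share the ratios were -1.56 and -1.0. Myeloid markers summed to 761 against 687 CPM in the WT library and 415 against 179 CPM in the KO-labelled library, with all 8 detected in each group. Epithelial markers summed to 723 CPM in WT cells with Tmem176b (5 of 5 detected) and 49.2 CPM in those without (4 of 5, Krt8 at 0), although 0.425% and 0.150% of cells held at least 3 of their UMIs. The B-cell markers Cd79a, Cd79b and Ms4a1, all detected in each group, were lower in cells with Tmem176b, as the Gimap genes were, at 27.3 against 124 CPM in the WT and 23.8 against 37.8 CPM in the KO-labelled library. At least 3 of their UMIs were held by 0.595% against 2.11% of WT cells and by 0.329% against 0.489% of KO-labelled cells. Leaving out the cells with markers of other types gave -1.73 in the WT and -1.16 in the KO-labelled library.

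Cells with Ly6c2, which encodes a surface protein of memory-like and interferon-γ-producing T cells, had more Gimap transcripts. The 458 WT cells with a Ly6c2 UMI had 2347 CPM against 1102 CPM in the 2047 without (log2 1.09, 1.04 to 1.14), and the 1617 KO-labelled cells 3024 against 2133 CPM (0.50, 0.48 to 0.53). In the WT library 4 of 8 members were at least 2-fold higher (Gimap4, Gimap6, Gimap7 and Gimap9), against 3.61% of genes, and in the KO-labelled library 2 of 8 (Gimap4 and Gimap7), against 1.49%. Medians were 0.98 and 0.47, beside -0.093 and -0.087 over all genes. The same pair led in both libraries. Gimap7 stood at 24.9 CPM without and 113 CPM with Ly6c2 in the WT library (log2 2.18, 1.89 to 2.47) and at 37.4 and 83.7 CPM in the KO-labelled library (1.16, 1.0 to 1.32). Gimap4 stood in the same order at 126 and 430.3 CPM in the WT library (1.77, 1.64 to 1.91), and at 239.8 and 503 CPM in the KO-labelled library (1.07, 1.0 to 1.13). Gimap1 differed least, by 0.40 and 0.21. Ly6c2-detected WT cells were also deeper, with a median of 4214 against 3129 UMIs, and thinning gave 1.22 in that library.

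Markers of other cell types moved with Ly6c2 too. The 8 myeloid markers, all detected in each group, summed to 1770 CPM in WT cells with Ly6c2 against 397 CPM in those without, and to 338 against 208 CPM in the KO-labelled library, while at least 3 of their UMIs were held by 8.95% and 7.62% of WT cells and by 3.53% and 4.21% of KO-labelled cells. Epithelial markers were lower with Ly6c2, at 21.5 against 510 CPM (WT) and 13.6 against 30.1 CPM (KO-labelled), with Krt8 at 0 in the cells with Ly6c2. The 3 B-cell markers stood at 57.9 against 79.8 CPM and 23.4 against 37.9 CPM, and stress transcripts at 3947 against 6123 CPM and 4370 against 4806 CPM. Without the cells that held markers of other types the summed Gimap ratio was 1.17 (WT) and 0.49 (KO-labelled), and among cells of low stress share it was 0.79 and 0.55.

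Cells with Cd8b1, the β chain of the CD8 coreceptor, had a smaller excess. The 88 WT cells had 1985 CPM against 1369 CPM (log2 0.54, 0.43 to 0.64) and the 961 KO-labelled cells 2848 against 2277 CPM (0.32, 0.29 to 0.35). In neither library was any of the 8 members 2-fold apart, against 4.56% and 0.76% of genes higher and 10.6% and 7.18% lower, and the medians were 0.54 and 0.25, beside -0.050 and -0.067 over all genes. Gimap6 was among the larger (0.70 and 0.45). Gimap7 was at -0.0065 in the KO-labelled library (-0.23 to 0.21) and Gimap5 at -0.013 in the WT library (-0.45 to 0.40), so no difference was detectable for these. In WT cells with Cd8b1 myeloid markers summed to 1245 CPM (6 of 8 detected, C1qa and Adgre1 at 0) against 699 CPM, epithelial markers to 11.7 against 412 CPM (2 of 5 detected) and the 3 B-cell markers to 11.7 against 77.7 CPM (Cd79a and Ms4a1 at 0). In the KO-labelled library the same lists stood at 168 against 256, 9.88 against 28.7 and 34.7 against 33.9 CPM. Stress transcripts stood at 3990 against 5685 CPM (WT) and 4909 against 4649 CPM (KO-labelled). The summed ratio was 0.56 (WT) and 0.31 (KO-labelled) without the cells that held markers of other types, and 0.24 in the WT library among cells of low stress share.

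**Figure D3:**
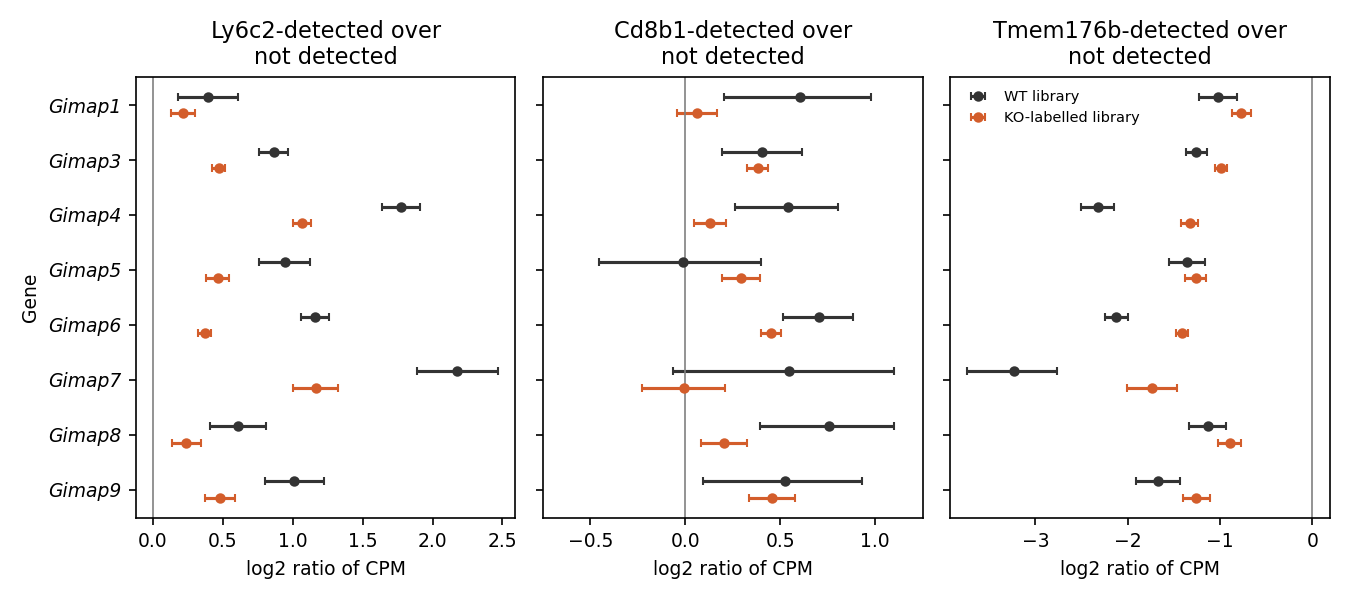
Log2 ratio of CPM (horizontal axis) between cells with and without a UMI of Ly6c2, Cd8b1 or Tmem176b for each Gimap gene, in the WT library (black) and the KO-labelled library (orange), with exact 95% counting intervals. All ratios lie above 0 for Ly6c2 and below 0 for Tmem176b, with Gimap7 farthest out for both genes in both libraries.

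Because a cell can hold more than 1 of the splitting genes, cells were also placed in 6 disjoint classes per library. At equal depth 4.64% of Ly6c2-detected WT cells and 5.66% of those of the KO-labelled library also had Tmem176b, while 24.5% and 15.9% of Cd8b1-detected cells had Ly6c2. Cells with Tmem176b alone had the lowest Gimap level of their library, 612 CPM in 1117 WT cells and 1017 CPM in 1301 KO-labelled cells. Cells with Ly6c2 alone had the highest, 2639.5 CPM (373 cells) and 3162 CPM (1243 cells). Cells with Cd8b1 alone had 2140.1 CPM (49 cells) and 2953 CPM (690 cells), and cells with Ly6c2 and Cd8b1 had 2036 CPM (31 cells) and 2938.5 CPM (205 cells). In both libraries these neighbours had overlapping counting intervals. Cells with none of the 3 genes had 1850.1 and 2550.5 CPM, and cells with Tmem176b together with Ly6c2 or Cd8b1 were second lowest at 1323 and 2252 CPM. Within each of the 6 classes the KO-labelled library was the higher, and for that contrast strain, sorted chain and library cannot be told apart.

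**Figure D4:**
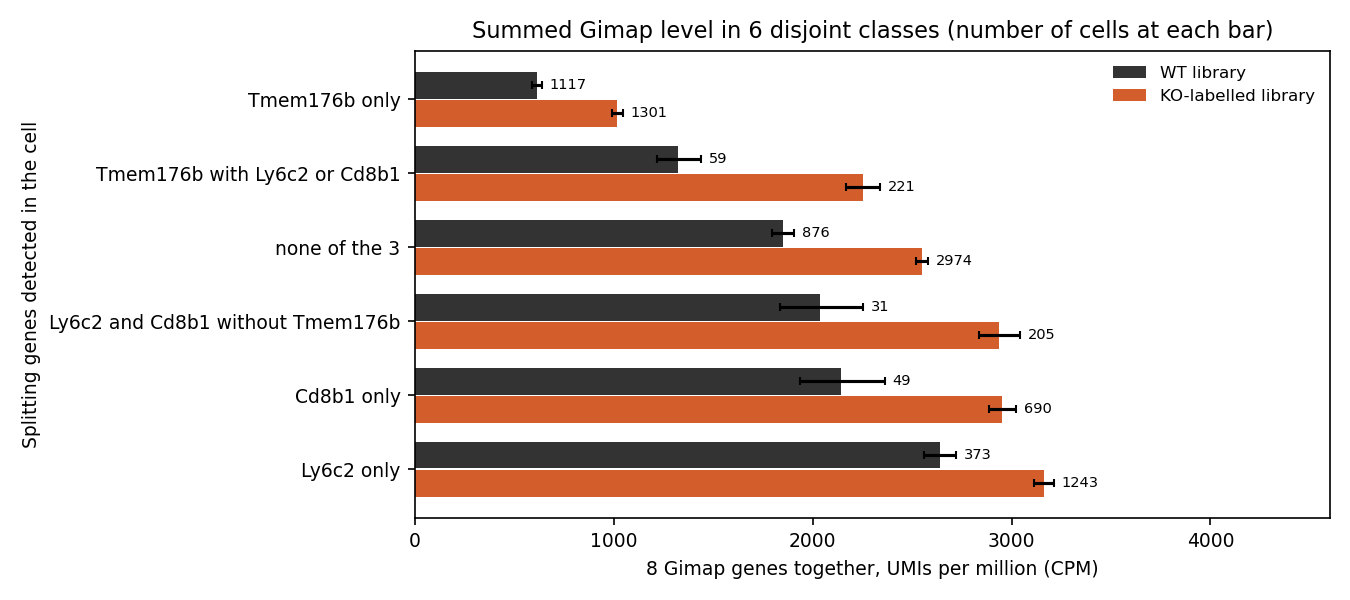
Summed level of the 8 Gimap genes (horizontal axis, CPM from 0) in 6 disjoint classes of cells, WT library in black and KO-labelled library in orange, with Poisson 95% counting intervals and the number of cells beside each bar. Cells with Tmem176b alone are lowest, at 612 and 1017 CPM, and cells with Ly6c2 alone highest.

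Gimap7 and Gimap4 again had the widest range over the classes. In the WT library Gimap7 ran from 4.57 CPM in cells with Tmem176b alone to 130.2 CPM in cells with Ly6c2 alone, and Gimap4 from 56.7 to 500.5 CPM. In the KO-labelled library Gimap7 ran from 13.1 to 93.6 CPM and Gimap4 from 103 to 532 CPM between the same classes. Cells with Cd8b1 alone had less of both than cells with Ly6c2 alone, at 48.8 and 244 CPM in the WT library and 46.7 and 304 CPM in the KO-labelled library. Gimap6 ranked differently there: it was at 715 CPM in WT and 942 CPM in KO-labelled cells with Cd8b1 alone, beside 728 and 855 CPM in cells with Ly6c2 alone.

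The chain groups differed in how often they held the splitting genes. At equal depth Tmem176b was detected in 79.5% (75.6 to 83.0) of Tcrg-V6-only, 32.5% (27.8 to 37.4) of Tcrg-V4-only and 24.8% (23.2 to 26.4) of KO-labelled Tcrg-V1 cells. Ly6c2 was detected in 2.28%, 22.3% and 17.4%, and Cd8b1 in 0.414%, 2.34% and 7.45%. Among Tmem176b-detected cells only, the WT chain groups came close: 458 Tcrg-V6-only cells had 591 Gimap CPM (556 to 627) and 168 Tcrg-V4-only cells 640.2 CPM (579 to 706). Their log2 ratio was 0.12 (-0.054 to 0.28). None of the 7 members with enough UMIs was 2-fold higher or lower, against 2.80% of 7108 genes higher and 5.67% lower. Gimap6 was at 91.3 and 134 CPM (0.55, 0.15 to 0.94), Gimap4 at 67.5 and 51.6 CPM (-0.39, -1.0 to 0.18) and Gimap7 had 8 and 5 UMIs. The direction of the summed ratio was not stable: it was -0.37 when groups were called on thinned cells and 0.62 among cells with Xist and no Y-linked UMI.

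The 911 KO-labelled Tcrg-V1 cells with Tmem176b stood above both WT groups, at 1151 CPM (1119.6 to 1182). Their log2 ratio was 0.96 (0.87 to 1.06) to Tcrg-V6-only and 0.85 (0.70 to 1.0) to Tcrg-V4-only cells. At least 2-fold higher were 3 of 8 members in the first (Gimap1, Gimap6 and Gimap7), against 6.46% of genes, and 3 of 8 in the second (Gimap4, Gimap6 and Gimap7), against 7.70%. Gimap7 rested on 75 against 5 UMIs in the second, with a log2 ratio of 1.03 whose interval included 0 (-0.26 to 2.69), and on 75 against 8 in the first. Gimap6 stood at 291 CPM in the Tcrg-V1 cells, log2 1.67 (1.44 to 1.91) above Tcrg-V6-only and 1.12 (0.80 to 1.46) above Tcrg-V4-only cells. The second ratio of the sum was 0.55 among cells of low stress share and 0.37 among cells with Xist and no Y-linked UMI. Cells without Tmem176b were higher in each group, at 1227 CPM in 62 Tcrg-V6-only, 2244 CPM in 242 Tcrg-V4-only and 2664 CPM in 1969 Tcrg-V1 cells. Of the chain groups without Tmem176b, 26.1%, 15.2% and 4.51% of cells had no Gimap gene detected at equal depth.

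The neighbouring Tmem176 genes went the other way from the Gimap cluster. In Tcrg-V4-only over Tcrg-V6-only cells, Tmem176b was at log2 -2.10 (-2.26 to -1.94) and Tmem176a at -1.77 (-1.95 to -1.60). In Tmem176b-detected cells Tmem176a was higher by 3.61 (WT) and 4.61 (KO-labelled). The pair overlap on the chromosome only from 48840919 to 48841496. Reads from that shared part cannot be told apart if counting did not use strand. AI854703, the counted gene before Gimap8, was higher in Tmem176b-detected cells (1.03 and 1.22), and Tra2a, a splicing factor gene near the far end of the 500 kb window, was about level (-0.061 and -0.046). Other neighbours went with the Gimap genes. Malsu1, which encodes a mitochondrial ribosome assembly factor, was at 0.60 (0.046 to 1.17) in Tcrg-V4-only and 0.99 (0.58 to 1.43) in Tcrg-V1 over Tcrg-V6-only cells, and at -0.43 (WT) and -0.47 (KO-labelled) in Tmem176b-detected cells. Igf2bp3, an RNA-binding protein gene that overlaps Malsu1, had 143 and 2 UMIs in Tcrg-V1 and Tcrg-V6-only cells (3.39, 1.51 to 6.45) and was at -1.07 in KO-labelled cells with Tmem176b, where Repin1 was at -0.84. Of the neighbours within 500 kb with at least 30 UMIs (Gimap1os and, in its own split, Tmem176b aside), 1 of 7 in the WT and 3 of 13 in the KO-labelled library had intervals below 0 in Tmem176b-detected cells, and 2 and 3 had intervals above 0.

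Gimap1os was higher in Tcrg-V4-only cells by 1.96 (0.84 to 3.23), with 28 and 9 UMIs, and stood at -2.34 (-3.07 to -1.67) and -1.32 (-1.66 to -0.99) in Tmem176b-detected cells of the WT and KO-labelled library. Gimap1 was at -1.02 (-1.22 to -0.81) and -0.77 (-0.87 to -0.67) there, so the intervals of this pair did not overlap in either library. Of the Gimap1os span 708 bases lie outside Gimap1 and 2391 within it on the other strand, and if counting did not use strand, reads from the shared part cannot be assigned to either gene.

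**Figure D5:**
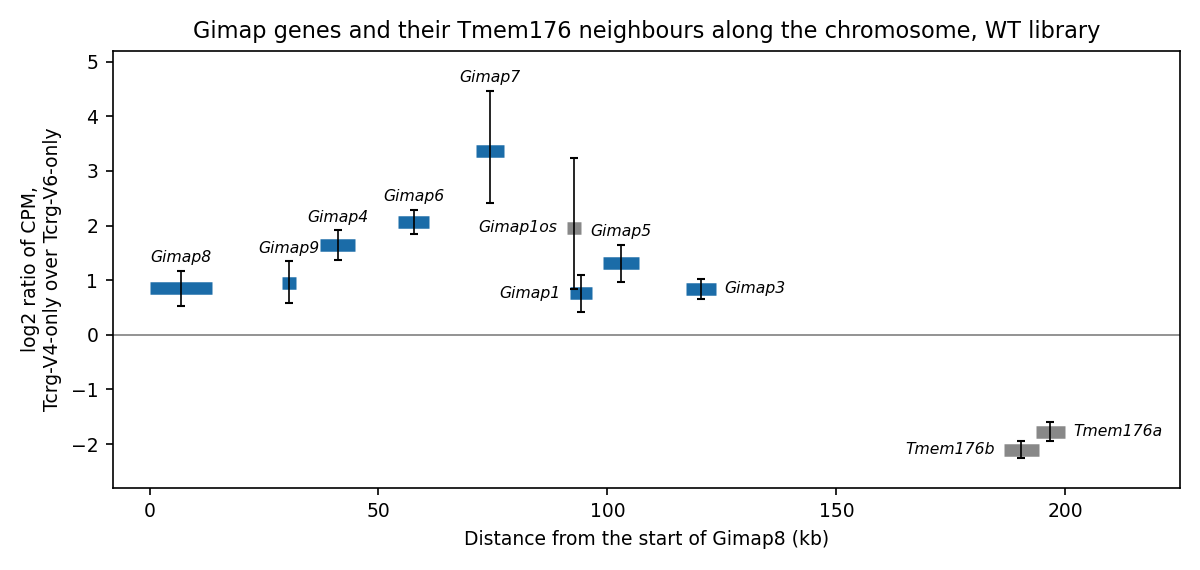
Log2 ratio of CPM between WT Tcrg-V4-only and Tcrg-V6-only cells (vertical axis, exact 95% counting intervals) for the 8 Gimap genes (blue) and for Gimap1os, Tmem176b and Tmem176a (grey), drawn at their place along the chromosome in kb from the start of Gimap8. The blue bars lie between 0.76 and 3.36 and the Tmem176 genes below -1.7.

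Other detection splits were made on a chemokine gene and on markers of activated and dividing cells. Cells with Ccl5, a chemokine of memory and cytotoxic T cells, were higher by 1.31 (WT) and 0.57 (KO-labelled) on the log2 scale, with 6 of 8 (against 3.16% of genes) and 2 of 8 (against 1.30%) members 2-fold higher. Gimap7 led in both libraries (2.63 and 1.68), followed by Gimap4 (2.11 and 1.12). Stress transcripts were lower in cells with Ccl5 (3950 against 6381 CPM WT, 4136 against 5092 CPM KO-labelled), as were myeloid markers (535 against 814 CPM and 161 against 301 CPM). The 3 B-cell markers were lower too (25.8 against 97.5 CPM and 24.9 against 40.6 CPM). Epithelial markers stood at 19.9 against 569 CPM (WT) and 38.5 against 16.4 CPM (KO-labelled). Median depth was 3794 against 3136 UMIs (WT) and 3616 against 3447 UMIs (KO-labelled). The part of these lists and of depth in the ratio was not tested.

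Cells with Cd44, a surface marker of activated T cells, were lower, with log2 ratios of -0.83 (WT) and -0.69 (KO-labelled). Of the 8 members 1 (Gimap6) was 2-fold lower in the WT library (2.67% of genes) and 0 in the KO-labelled library (2.57%). Myeloid markers were higher in cells with Cd44, at 1408 against 252 CPM (WT) and 529 against 156 CPM (KO-labelled), and their part in the ratio was not tested. The few cells with Mki67, a marker of dividing cells, were at -0.26 (36 WT cells) and -0.35 (69 KO-labelled cells), with 0 of 8 members 2-fold lower in either (against 9.56% and 5.18% of genes). In the WT library 1 of 8, Gimap7, was 2-fold higher (against 14.4%) and in the KO-labelled library 0 (14.3%). Cells with Mki67 were deeper, with medians of 5288 against 3267 UMIs (WT) and 5750 against 3509 UMIs (KO-labelled). The part of depth in these ratios was not tested.

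Lists of related genes were counted by the same 2-fold rule. Of 13 quiescence and survival genes, 4 were 2-fold higher in Tcrg-V4-only than in Tcrg-V6-only cells and 0 lower, against 5.29% and 5.15% of all genes, with a median of 0.53 beside 0.015 over all genes. These were Tcf7 (1.82), Klf2 (1.75), Lef1 (1.60) and Klf3 (1.44), transcription factor genes of naive and resting T cells, while Il7r, the receptor of a survival cytokine, was at -0.14. Between Tcrg-V1 and Tcrg-V6-only cells 5 of 13 were higher, against 11.4% of genes, led by Klf2 (3.41), and between Tcrg-V1 and Tcrg-V4-only cells 1 of 13, Klf2 (1.65), against 5.28%. The medians were 0.53 and 0.17, beside 0.098 and 0.074 over all genes. In Tmem176b-detected cells 4 of 13 were lower in each library, against 8.64% (WT) and 5.57% (KO-labelled) of genes, with medians of -0.51 and -0.65 beside -0.14 and -0.079, and Il7r was higher by 0.83 and 0.72, opposite to the Gimap genes. In Ly6c2-detected cells 0 of 13 were 2-fold higher or lower in either library. Of all genes 3.61% (WT) and 1.49% (KO-labelled) were higher there and 7.95% and 4.59% lower. The list medians were 0.32 and 0.018, beside -0.093 and -0.087.

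The ATG8 family, to which the partner of Gimap6 belongs, had a median ratio near 0. Of its 5 genes 0 were 2-fold apart between Tcrg-V4-only and Tcrg-V6-only cells (median -0.074, beside 0.015 over all genes). Of all genes 5.29% were higher and 5.15% lower, so this count does not set the 5 genes apart. Gabarapl2 was itself at that median and at 0.049 in Tcrg-V1 over Tcrg-V6-only cells. Map1lc3a was the exception in Tcrg-V1 cells, at -1.52 over Tcrg-V6-only cells, where 6.76% of all genes were 2-fold lower. Of the genes of the type 1 program, 5 of 7 with enough UMIs were higher in Tcrg-V4-only cells (against 5.29% of genes) and 6 of 8 in Tcrg-V1 cells (against 11.4%) over Tcrg-V6-only cells, with medians of 2.56 and 1.98 beside 0.015 and 0.098 over all genes, among them Eomes (3.72 and 2.57) and Cd27 (3.33 and 3.43). The list also went with the summed Gimap level in Ly6c2-detected cells, with medians of 2.37 (WT) and 1.67 (KO-labelled). There 7 and 5 of 8 were higher, against 3.61% and 1.49% of genes. In Tmem176b-detected cells 7 (WT) and 3 (KO-labelled) of 8 were lower, against 8.64% and 5.57%. In some other comparisons the list went against that level. In Tcrg-V1 over Tcrg-V4-only cells 0 of 8 were higher (against 5.28%) and 2 lower (against 3.89%), with a median of -0.21. In KO-labelled cells with Cd8b1 0 were higher (against 0.76%) and 3 lower (against 7.18%), with a median of -0.71.

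Family members tended to be detected in the same cells. At 2000 UMIs per cell, all 28 pairs of members had a higher share of cells with the second gene among cells with the first than among cells without it in Tcrg-V4-only and in KO-labelled Tcrg-V1 cells, with median differences of 12.9 and 10.0 percentage points. In Tcrg-V6-only cells this held for 22 of 28 pairs (median 3.81). It did not hold for Gimap7 with Gimap1, Gimap3, Gimap8 or Gimap9, nor for Gimap5 with Gimap8 or Gimap9. Gimap7 was detected in only 4 of these 483 cells. In Tcrg-V4-only cells, 75.0% of cells with Gimap4 had Gimap6, against 31.2% of those without Gimap4. The groups hold cells with and without Tmem176b, so this describes mixed groups. Pairs of other genes were not counted, so these numbers have no background and do not set the family apart.

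Over the 12 disjoint classes of cells (6 in each library), the genes whose level was most like the summed Gimap level were Ms4a4b (Pearson r of log2 levels 0.973), Tmsb10 (0.971), Dgka (0.955), Tigit (0.954) and Gm8369 (0.954), out of 6906 genes. Most unlike were Cenpl (-0.967), Fth1 (-0.956), Hsp90b1 (-0.954), Manf (-0.954) and Trmt61b (-0.951). The members themselves ranged from 0.860 (Gimap7) to 0.981 (Gimap6), but each is part of the sum, so a high value is partly built in. S1pr1 was at 0.893 and Klf2 at 0.794, while Tmem176b, which defines some of the classes, was at -0.80. The classes of a library share its cells' preparation and depth, and the 12 points are not independent, so these values are a description.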

How the data were processed

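The authors deposited filtered 10x Genomics matrices of whole-number UMI counts per gene and cell, 1 for each of 2 libraries, without normalization. Their sources differ: the labels name a 3′ kit, the methods a V(D)J kit, and the Cell Ranger version is 7.0.0 in the file headers and 7.0 in the processing notes, with another in the methods. Reads were aligned to mm10. The sources used here do not say whether counting used strand or introns.

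The methods' filter was applied (over 200 and under 4000 genes, mitochondrial UMIs under 10%), and no doublet caller was run. An only-chain cell had at least 1 UMI of that Tcrg variable gene and 0 of every other; a Tcrg-V1 cell had at least 1. UMIs were summed per group and divided by the group's total (CPM). Ratios carry exact conditional intervals, levels Poisson and shares Clopper-Pearson intervals. Shares used cells thinned to 2000 UMIs (seed 1), so that 380 shallower cells of the WT and 828 of the KO-labelled library were left out. Depth was 9173997 and 26436826 UMIs. A ratio with a group at 0 used a floor of 3 UMIs per group. Likeness used genes with at least 500 UMIs and classes of at least 30 cells, with 1 UMI added to each sum. Gene positions came from the GENCODE annotation of GRCm38, and 32158 of 32285 identifiers matched the reference names. The summing and interval steps were tested on simulated data. Python 3.11.15, numpy 2.4.6, scipy 1.17.1, pandas 2.3.3 and matplotlib 3.10.9 were used.

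Named were the 8 members, splitting genes, Tcrg genes, 2 to 4 genes per list, neighbours within 500 kb and the 5 genes at each end of likeness. The members and lists were chosen with earlier results of these data known. Alternatives are given in the closing section. Protein sequences were not used here, and some planned splits, lists and markers are not reported here.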

Additional observations from a re-analysis of the deposited data

Results flagged for a closer look

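Gimap1os, the antisense transcript that overlaps Gimap1, lies outside the 8 members and is listed as a counted transcript that the comparisons of the members do not use. At 2000 UMIs per cell it was detected in 2.92% of WT cells (2.24 to 3.72, 62 of 2125) and in 5.29% of KO-labelled cells (4.73 to 5.89, 307 of 5806). The limit that a count of 0 would allow is 0.141% and 0.0517%, a low bar, so the shares are a description. The sources used here do not say whether counting used strand, and how many of these UMIs come from Gimap1 was not tested.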

How the results depend on the processing

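Results rest on 1 library per group, so there was no replicate to leave out. No paired analysis was possible because the values come from 1 library per group and from no test. The summed ratios of the chain groups and of the Ly6c2, Cd8b1 and Tmem176b splits were recomputed under up to 13 alternatives. Of these 12 were planned and 1 was added after seeing the data (Tmem176b-detected cells without Ly6c2 or Cd8b1 UMIs). The Cd44, Ccl5 and Mki67 ratios were not recomputed. Of 133 recomputed ratios 67 stayed within the counting interval and 66 moved out of it. In 11 of the 12 comparisons all alternatives kept the direction. The exception was Tcrg-V4-only over Tcrg-V6-only cells among Tmem176b-detected cells, where 9 of 12 did. The cause of a move was not tested. Low-depth genes such as Gimap7 in Tcrg-V6-only cells (10 UMIs) limit the single-gene ratios.

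All values here are log2 ratios of the summed Gimap level. For Tcrg-V4-only over Tcrg-V6-only cells (1.32) the ratio was 1.20 with groups called on thinned cells, 1.51 with at least 2 UMIs to call a group, 1.22 without cells holding markers of other types, 1.58 in cells with Xist and no Y-linked UMI, and 1.56 in cells of low stress share. For Tcrg-V1 over Tcrg-V6-only cells (1.74) it was 1.85 on thinned cells, 1.85 with groups also called on them, 1.87 as the mean of per-cell CPM, 1.63 in cells of low stress share and 1.83 for cells with no other Tcrg variable gene. For Tcrg-V1 over Tcrg-V4-only cells (0.41) it was 0.58 on thinned cells, 0.65 with groups called on them, 0.20 with at least 2 UMIs, 0.52 without cells holding other markers, 0.61 as the mean of per-cell CPM, 0.50 without the 5% of cells with most UMIs, 0.090 with Xist, 0.070 at low stress and 0.51 for cells with no other Tcrg variable gene.

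For Ly6c2 in the WT library (1.09) it was 1.22 on thinned cells, 1.20 with groups called on them, 1.17 without cells holding other markers, 1.21 without ribosomal and mitochondrial UMIs, 1.20 as the mean of per-cell CPM, 1.28 without the deepest cells, 0.87 with Xist and 0.79 at low stress. For Ly6c2 in the KO-labelled library (0.50) it was 0.53 with at least 2 UMIs, 0.56 without ribosomal and mitochondrial UMIs, 0.48 as the mean of per-cell CPM, 0.54 without the deepest cells, 0.58 with Xist and 0.55 at low stress. For Cd8b1 it was 0.66 as the mean of per-cell CPM, 0.74 without the deepest cells and 0.24 at low stress in the WT library (0.54). In the KO-labelled library (0.32) it was 0.25 on thinned cells, 0.26 with groups called on them, 0.37 without ribosomal and mitochondrial UMIs, 0.29 as the mean of per-cell CPM and 0.39 with Xist.

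For Tmem176b in the WT library (-1.67) it was -1.82 on thinned cells, -1.74 with at least 2 UMIs, -1.73 without cells holding other markers, -1.82 without the deepest cells, -1.44 with Xist and -1.56 at low stress. In the KO-labelled library (-1.17) it was -1.12 with no cell filter, -1.48 with at least 2 UMIs, -1.22 without ribosomal and mitochondrial UMIs, -1.23 without the deepest cells, -1.10 with Xist and -1.0 at low stress.

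Among Tmem176b-detected cells, Tcrg-V4-only over Tcrg-V6-only (0.12) was -0.37 with groups called on thinned cells, -0.13 with at least 2 UMIs, 0.62 with Xist, 0.35 at low stress and -0.093 without Ly6c2 or Cd8b1. Tcrg-V1 over Tcrg-V6-only (0.96) was 0.74 with at least 2 UMIs, 1.07 as the mean of per-cell CPM and 0.84 without Ly6c2 or Cd8b1. Tcrg-V1 over Tcrg-V4-only (0.85) was 1.01 on thinned cells, 1.29 with groups called on them, 1.0 as the mean of per-cell CPM, 0.37 with Xist and 0.55 at low stress. With 1.5-fold in place of 2-fold, members apart numbered 8 for Tcrg-V4-only over Tcrg-V6-only cells, 1 for Tcrg-V1 over Tcrg-V4-only cells, 7 and 3 for Ly6c2 and Cd8b1 in the WT library and 8 for Tmem176b in the KO-labelled library. The share of all genes past 1.5-fold was not counted, so these numbers have no background to be read against.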
